A study of Mus musculus with 12 samples.

Results

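The gastrocnemius and the quadriceps of mice kept on the ground were compared, muscle against muscle. The gastrocnemius is the calf muscle that extends the ankle and flexes the knee, and the quadriceps is the thigh muscle that extends the knee. The comparison used 6 of the 12 RNA libraries of the series. Its samples were chosen by their labels alone: both muscles of ground mice M02, M03 and M08, 3 libraries a muscle. The other 6 libraries came from the same muscles of 3 flown mice (M11, M12 and M20), and served to set the same difference beside its value in other animals. They also entered the filter on low values, which kept genes above 5 TPM in any of the 12 libraries, and the fits said to use all 12. The study asked how spaceflight changes gene expression and splicing in both muscles.

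All mice were female and 30 weeks old at the start, and the experiment lasted 9 weeks. The sample labels give the strain as C57BL/6, whereas the study's methods give BALB/c. The ground mice were kept at the Kennedy Space Center in the flight hardware while the others were on the space station. According to the methods, every mouse used received injections of phosphate-buffered saline, the control therapy of a drug study, so the comparison holds no untreated mice. Carcasses were frozen, and the muscles of the left hind limb were dissected after thawing. Polyadenylated RNA of each whole muscle was sequenced, so every value is an average over fibers, nerve, vessels, fat and connective tissue.

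A muscle fiber is typed by its myosin heavy chain, the motor protein of the thick filament. Myh7 encodes the slow type I chain, Myh2 the fast oxidative type IIa chain, Myh1 the intermediate type IIx chain and Myh4 the fast glycolytic type IIb chain. Titin, encoded by Ttn, spans the sarcomere from Z-disc to M-band as a molecular spring. The elastic parts are Ig domains and the PEVK region, which is rich in proline, glutamate, valine and lysine and is built from many short exons that are alternatively spliced. A muscle with more of these exons in its Ttn transcripts encodes a longer, more extensible titin.

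Expression was deposited as TPM, a transcript abundance that divides reads by transcript length and scales each library to a common total. The differences below are on the log2(TPM + 1) scale, gastrocnemius minus quadriceps, from limma with mouse as a block. That scale understates the fold change of weakly expressed genes. A gene was called when its adjusted p was under 0.05 and its change exceeded 1.5-fold. The listed TPM values of a gastrocnemius library summed to between 923295 and 924762, those of a quadriceps library to between 952229 and 961683. The quadriceps library of M08 listed 18172 genes above 0, the other 5 between 20753 and 21265, and its 9072 genes above 5 TPM lay within their range. TPM carries no read depth, so precision rests on the spread between the 3 mice. All 6 libraries carried the muscle markers Acta1 (17573 TPM or more), Ckm (13130.2 TPM or more) and Mb (1204 TPM or more).

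Of 10481 genes tested, 198 were called (1.89%), 54 higher in the gastrocnemius (0.515%) and 144 higher in the quadriceps (1.37%). Named genes with a predicted or pseudogene symbol made up 36 of the 198. The groups did not overlap for 185 of the 198 called genes, beside 33.8% of all genes tested. The split between muscles depended on the scale. Gm12895 and Gm12896, a pair of short pseudogene records on chromosome 4 that share 99.0% of their 31-base words and have identical values, took 15.03% to 15.3% of the listed TPM in the gastrocnemius. They took 6.68% to 8.70% in the quadriceps. The median gene lay at -0.12 on the log2 scale, at 0.04 with TPM recomputed without this pair, and at 0.001 after rescaling by the median of ratios. After rescaling 75 genes were called (0.716%), 40 higher in the gastrocnemius (0.382%) and 35 in the quadriceps (0.334%), so that 53.3% of the calls were higher in the gastrocnemius instead of 27.3%. Of the 198 genes 71 were still called and 0 changed direction. The calls also rested on all 3 mice: limma called 2 genes without M02, 1 of them Gm8430, and 0 without M03 or without M08, where 1 residual degree of freedom remained and 1955 and 2352 genes had an unadjusted p under 0.05.

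The gastrocnemius held a smaller share of type IIb and larger shares of type IIx and IIa myosin heavy chain transcripts. Shares are the percent of the summed TPM of 9 heavy chain genes, which compares levels per length. Myh4 made up 81.5%, 84.1% and 84.1% in the gastrocnemius of M02, M03 and M08, and 87.7%, 90.1% and 89.4% in their quadriceps. The lowest quadriceps share was above the highest gastrocnemius share, and the means were 83.2% ± 1.48 and 89.1% ± 1.21 (SD, n = 3 mice). In the same order of muscles, Myh1 took 9.18% ± 0.585 and 5.97% ± 1.36, and Myh2 took 5.79% ± 0.823 and 3.72% ± 0.448 (SD, n = 3). For each of Myh4, Myh1 and Myh2 the groups did not overlap and all 3 mice differed in the same direction. The two-sided exact permutation p was 0.1 for each unpaired and 0.25 paired, the smallest values that 3 against 3 and 3 pairs allow. Myh7 took 1.19% ± 0.154 and 0.850% ± 0.401 (SD, n = 3), with an exact permutation p of 0.2 unpaired and 0.5 paired. That difference of 0.341 points was 0.0218 points without M02.

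**Figure D1:**
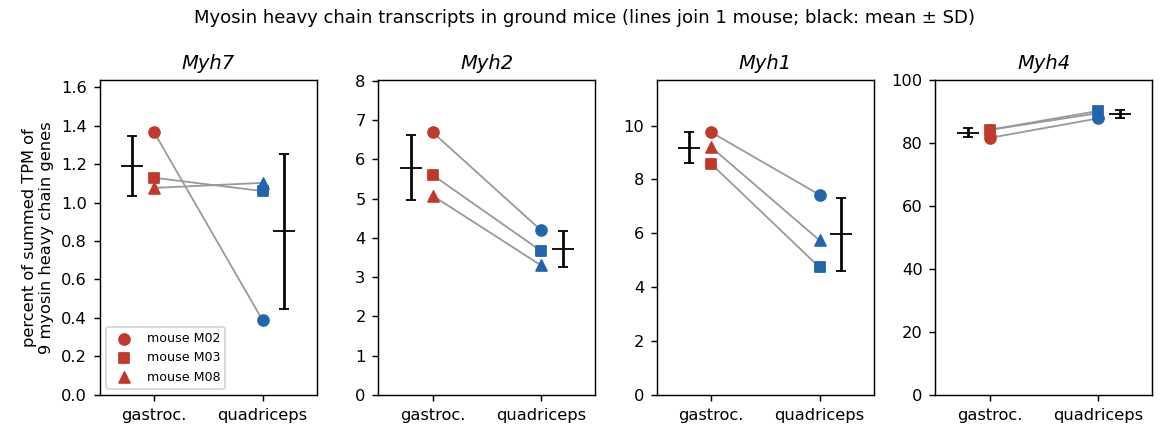
Share of Myh7, Myh2, Myh1 and Myh4 in the summed TPM of 9 myosin heavy chain genes (percent, a separate axis for each gene), gastrocnemius in red and quadriceps in blue. Lines join the muscles of 1 mouse and black bars are mean ± SD over 3 mice; the Myh4 line is higher in the quadriceps of all 3 mice, and the quadriceps of M02 holds 0.387% Myh7 against 1.06% and 1.10% in M03 and M08.

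As levels, Myh4 was listed at 16601, 16949.7 and 17368 TPM in the gastrocnemius of M02, M03 and M08 and at 21941, 24874 and 24802 TPM in the quadriceps. All quadriceps values were above all gastrocnemius values. The difference was -0.49 ± 0.07 (SE) with a limma adjusted p of 0.0343, under the 1.5-fold limit, and rescaling left it at -0.36 with an adjusted p of 0.105. The remaining heavy chains were not called. Myh1, at 1729.7 to 1986 TPM against 1306 to 1858 TPM, overlapped between the muscles, and Myh2, at 1048 to 1362 TPM against 915 to 1048 TPM, did not. Both were higher in the gastrocnemius of each mouse, by 0.25 (limma adjusted p = 0.112) and 0.24 (adjusted p = 0.0972). The developmental chains Myh3 and Myh8 stayed between 6.43 and 8.97 TPM. Myh2, Myh1 and Myh4 lie next to each other at chr11:67171027-67260446 (GRCm38, plus strand), and 32.8%, 37.9% and 30.4% of their 31-base words occur in other genes, so reads from one may have been assigned to another.

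Of 19 slow-twitch genes 3 did not overlap between the muscles (33.8% of all genes did not), and 1 quadriceps library stood apart. Myh7 was at 278, 228 and 222 TPM in the gastrocnemius and at 96.8, 292 and 306 TPM in the quadriceps of M02, M03 and M08. The quadriceps of M02 was lowest of the 6 libraries for all 8 genes examined: Myh7, Myl2, Myl3, Tnnc1, Tnni1, Tnnt1, Tpm3 and Atp2a2. These encode the slow myosin heavy and light chains, the slow troponins, slow tropomyosin and the slow calcium pump. Their levels there were 0.324 to 0.469 of the mean of the other quadriceps libraries. Over the 19 slow-twitch genes the median difference was 0.23 with M02, -0.12 without it (beside -0.10 over all genes in that fit), 0.42 without M03 and 0.53 without M08. Why the M02 library is low was not tested.

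Of the 19 slow-twitch genes 2 were called, both higher in the gastrocnemius and both Z-disc or thin filament genes. Of all genes, 0.515% were called higher in the gastrocnemius. Actn2, the alpha-actinin of the Z-disc of all fibers, was at 541, 406 and 385 TPM in the gastrocnemius and 308, 258 and 284 TPM in the quadriceps. Lmod2, a nucleator of thin filaments, was at 109, 95.9 and 84.1 TPM against 61.5, 59.6 and 64.9 TPM. For both genes every gastrocnemius library lay above every quadriceps library. The differences were 0.63 ± 0.09 (SE) and 0.62 ± 0.10 with limma adjusted p-values of 0.0347 and 0.0446. After rescaling Actn2 was still called and Lmod2 was not (adjusted p = 0.0599).

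Fast-twitch genes were lower in the gastrocnemius. Of 20 tested, 17 were lower and 17 did not overlap between the muscles (33.8% of all genes did not), 1 of these being higher in the gastrocnemius, with a median of -0.40 beside -0.12 over all genes and -0.27 after rescaling. Mylpf, the fast regulatory light chain, was at 8979.7, 9211 and 8646 TPM in the gastrocnemius and 15079.7, 19025 and 15219 TPM in the quadriceps. Pvalb, the calcium buffer parvalbumin, was at 4723, 4969 and 5212 TPM against 7798, 8713 and 7152 TPM. Each quadriceps value was above each gastrocnemius value for both genes. They were the 2 members called (1.37% of all genes were called higher in the quadriceps). Their differences were -0.87 ± 0.08 (SE) and -0.66 ± 0.09, with limma adjusted p-values of 0.0249 and 0.0325. Neither was called after rescaling, where their adjusted p-values were 0.0555 and 0.0837. The fast troponins Tnnt3, Tnni2 and Tnnc2 differed by -0.53, -0.55 and -0.51, with adjusted p-values of 0.0297, 0.0285 and 0.0287 and less than 1.5-fold. The fast calcium pump Atp2a1 (-0.27, adjusted p = 0.096) and muscle creatine kinase Ckm (-0.25, adjusted p = 0.103) did not pass.

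Among 54 sarcomere, Z-disc and M-band genes 4 were called, all higher in the gastrocnemius (0.515% of all genes were called higher there). Of the 54 genes, however, 33 were lower there and 21 higher, with a median of -0.09. After rescaling 24 were lower and 30 higher, with a median of 0.04. Fhl1, a LIM protein of the sarcomere, was at 725, 589 and 507 TPM against 384, 268 and 290.4 TPM. Pdlim1, a Z-disc partner of alpha-actinin, was at 62.0, 55.4 and 45.8 TPM against 37.2, 36.2 and 20.6 TPM. The muscles did not overlap for these genes. Fhl1 differed by 0.95 ± 0.08 (SE, limma adjusted p = 0.0249) and Pdlim1 by 0.81 ± 0.12 (adjusted p = 0.037), and Actn2 and Lmod2 were the other two. After rescaling Fhl1 and Actn2 were still called, and Pdlim1 was not (adjusted p = 0.0599). Ttn itself did not differ in level, at 8091, 7264 and 7338 TPM against 7066, 7710.4 and 7731 TPM (0.01, adjusted p = 0.939). Of 40 excitation-contraction coupling genes 1 was called (1.89% of all genes were), the calmodulin gene Calm3. It was at 148, 155 and 147 TPM against 226, 248 and 243 TPM (-0.66 ± 0.06, limma adjusted p = 0.0249). It was not called after rescaling, at -0.54.

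**Figure D2:**
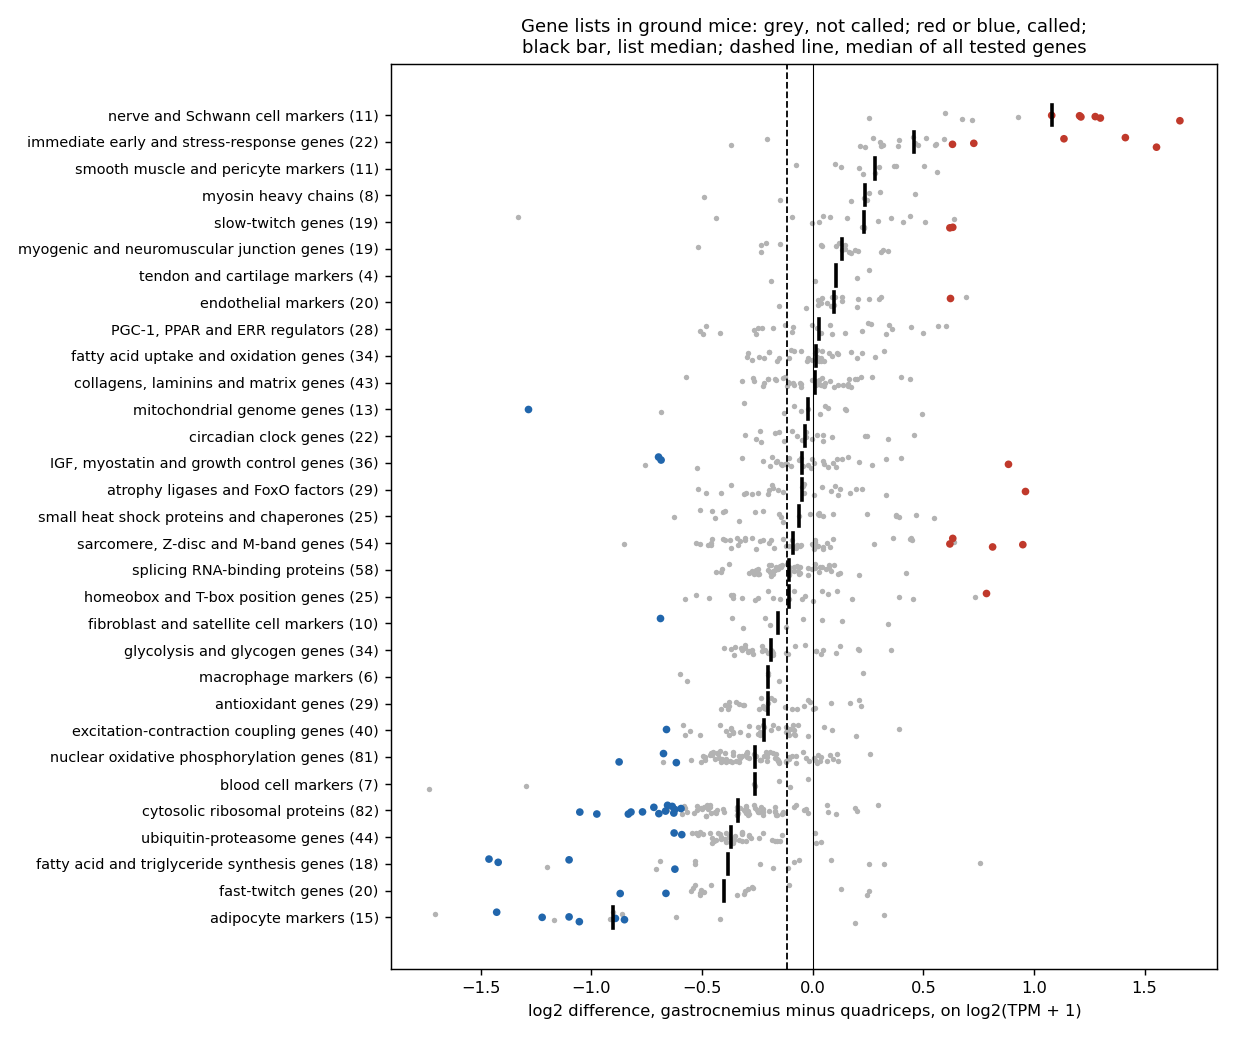
Log2 difference (gastrocnemius minus quadriceps, log2(TPM + 1) scale) of each tested member of 31 gene lists, with the number tested in brackets. Red and blue points were called higher in the gastrocnemius or the quadriceps, grey points were not called, black bars are list medians and the dashed line is the median of all genes at -0.12. The nerve and Schwann cell list has the highest median (1.08) and the adipocyte list the lowest (-0.90).

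The clearest group higher in the gastrocnemius was that of myelin genes of Schwann cells, the glia that wrap motor and sensory axons. Of the 19 markers listed 11 passed the filter. All 11 were higher there, 9 without overlap (5.52% of all genes were higher there without overlap). Of the 11, 6 were called (0.515% of all genes were called higher there). The list median was 1.08, and 1.19 after rescaling. Some members, Prx and Mal among them, passed the filter only through gastrocnemius libraries, where they are higher. The filter therefore partly set these counts. Mbp was above 5 TPM in all 12 libraries. Mbp, myelin basic protein, was at 60.0, 57.4 and 39.0 TPM in the gastrocnemius of M02, M03 and M08 and at 18.5, 16.4 and 12.3 TPM in the quadriceps. In both muscles the M08 library was the lowest, and the lowest gastrocnemius was above the highest quadriceps. Mbp differed by 1.66 ± 0.08 (SE), with a limma adjusted p of 0.017, which corresponded to 3.31-fold higher mean TPM.

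Pmp22, a further compact myelin protein, was at 52.2, 49.8 and 33.4 TPM against 22.3, 18.8 and 15.4 TPM. Prx, periaxin, which links myelin to the Schwann cell's dystroglycan complex, was at 13.6, 12.8 and 9.38 TPM against 4.92, 4.68 and 3.16 TPM. Drp2, its dystrophin-related partner, was at 9.86, 9.76 and 7.58 TPM against 3.93, 3.82 and 3.46 TPM, and the muscles were apart for each of the 3. Their differences were 1.21, 1.30 and 1.08, with limma adjusted p-values of 0.0249, 0.0249 and 0.0311. Mal, a proteolipid of myelin membranes, differed by 1.21 (adjusted p = 0.041) and was the 1 of the 6 not called after rescaling (adjusted p = 0.0622). The neurofilament and peripherin genes Nefl, Nefm, Nefh and Prph, transcribed in neuron bodies outside the muscle, were at 0.338 TPM or less in all 6 libraries. In whole muscle more Schwann cells and more RNA per Schwann cell cannot be told apart, nor can the amount of nerve dissected with each muscle. The summed level of the 11 markers that passed the filter was 171 to 253 TPM in the gastrocnemius and 69.3 to 104 TPM in the quadriceps.

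Adipocyte genes were higher in the quadriceps. Of 15 tested markers 13 were lower in the gastrocnemius and 6 were called (1.37% of all genes were called higher in the quadriceps). The median was -0.90, and -0.78 after rescaling. Then 3 were still called, Adipoq, Retn and Cfd (0.334% of all genes were called higher in the quadriceps). Adipoq, the fat hormone adiponectin, was at 12.1, 8.39 and 3.81 TPM in the gastrocnemius and 29.99, 17.8 and 11.98 TPM in the quadriceps of M02, M03 and M08. Retn, resistin, was at 9.20, 6.69 and 3.39 TPM against 27.5, 18.9 and 10.8 TPM. Levels varied between mice in both muscles, M02 being highest and M08 lowest, and Adipoq overlapped between the muscles while each mouse was higher in the quadriceps. Within mice Adipoq differed by -1.22 ± 0.12 (SE, limma adjusted p = 0.0272) and Retn by -1.43 ± 0.10 (adjusted p = 0.0234).

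The other called fat genes were Scd1, the stearoyl-CoA desaturase (-1.10, limma adjusted p = 0.0458), Cidec, a lipid droplet protein (-1.05, adjusted p = 0.0331), Fabp4, the adipocyte fatty acid binding protein (-0.89, adjusted p = 0.0343) and Cfd, adipsin (-0.85, adjusted p = 0.0249). Ucp1, the uncoupling protein of brown fat, was listed at 0 in all 3 gastrocnemius libraries and at 12.1, 0.148 and 1.31 TPM in the quadriceps, and did not pass (adjusted p = 0.201). Plin4 and Lpl, which muscle fibers also express, had values of 0.19 (adjusted p = 0.262) and 0.32 (adjusted p = 0.0689). The summed level of the 15 tested markers was 599 to 831 TPM in the gastrocnemius and 731 to 1419 TPM in the quadriceps, so its ranges overlapped. How much fat was dissected with each muscle was not tested.

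Of 18 genes for making fatty acids and triglycerides, a list added after the values were seen, 4 were called, all higher in the quadriceps. Of all genes, 1.37% were called higher there. Fasn, fatty acid synthase, was at 33.4, 29.0 and 10.9 TPM in the gastrocnemius and 104, 79.0 and 29.6 TPM in the quadriceps. Thrsp, a lipogenic nuclear protein, was at 12.6, 11.6 and 6.79 TPM against 48.0, 35.6 and 13.3 TPM. The quadriceps of M08 was below the gastrocnemius of M02 for Fasn, although each mouse was higher in its quadriceps. Fasn differed by -1.46 ± 0.09 (SE, limma adjusted p = 0.017) and Thrsp by -1.42 ± 0.20 (adjusted p = 0.0347). Me1, malic enzyme, which supplies NADPH, differed by -0.62 (adjusted p = 0.0399), and Scd1 was the remaining call. After rescaling Fasn was the 1 gene of the list still called, with adjusted p-values of 0.0631, 0.0905 and 0.0838 for Thrsp, Me1 and Scd1.

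Immediate early and stress-response genes, which are transcribed within minutes of a stimulus, were higher in the gastrocnemius. This list of 22 tested genes was also added after the values were seen. Its median was 0.46, 20 members were higher there and 5 were called (0.515% of all genes were called higher there). Atf3, a stress transcription factor, was at 17.8, 35.0 and 17.7 TPM in the gastrocnemius and 6.84, 8.16 and 5.98 TPM in the quadriceps. Nr4a3, an orphan nuclear receptor, was at 34.0, 35.3 and 20.1 TPM against 12.2, 9.90 and 8.88 TPM. Fos, an AP-1 subunit, was at 34.7, 74.7 and 64.3 TPM against 15.2, 30.7 and 31.4 TPM. Every gastrocnemius value was above every quadriceps value for these genes, although the lowest Fos value of the gastrocnemius was close to the highest of the quadriceps. The differences were 1.55, 1.41 and 1.14, with limma adjusted p-values of 0.0285, 0.0272 and 0.0249. Sik1, a kinase induced by cyclic AMP (0.73, adjusted p = 0.0372), and Nr4a1 (0.63, adjusted p = 0.0356) were the other calls, and all 5 were called after rescaling. The time between death, freezing and dissection of each muscle is not given in the sources used here, and its part in these values was not tested.

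Some genes of the growth control and atrophy lists were called. Mstn, myostatin, the secreted inhibitor of muscle growth, was at 22.6, 26.9 and 21.2 TPM in the gastrocnemius and 42.5, 37.5 and 35.2 TPM in the quadriceps. Acvr2a, a receptor of the same ligand family, was at 12.9, 12.5 and 13.1 TPM against 19.2, 19.6 and 25.9 TPM. Both were lower in every gastrocnemius library, by -0.69 ± 0.11 (SE, limma adjusted p = 0.0402) and -0.70 ± 0.11 (adjusted p = 0.0444), and neither was called after rescaling. Irs2, an adaptor of the insulin receptor, was at 25.2, 21.99 and 12.6 TPM against 11.4, 10.7 and 7.94 TPM. Cebpb, a transcription factor placed here among the atrophy genes, was at 31.4, 27.4 and 21.4 TPM against 17.7, 13.9 and 9.03 TPM. Both were higher in every gastrocnemius library, by 0.88 (adjusted p = 0.0352) and 0.96 (adjusted p = 0.0285), and both were called after rescaling. These were 3 of 36 growth control genes and 1 of 29 atrophy genes, beside 1.89% of all genes called. After rescaling 1 gene of each list was called, beside 0.716% of all genes.

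Genes that mark position along the limb included a call. Of 55 homeobox and T-box genes 25 were tested, 8 higher and 17 lower in the gastrocnemius. Their median was -0.11, beside -0.12 over all genes. After rescaling 13 were higher and 12 lower, with a median of 0.01. Of the 25, 14 did not overlap between the muscles (33.8% of all genes did not) and 9 had an unadjusted p under 0.05 in limma. The 1 called (1.89% of all genes were) was Hoxd8 (chr2:74704615-74707933). It was at 15.2, 19.3 and 19.4 TPM in the gastrocnemius and 9.25, 11.9 and 8.90 TPM in the quadriceps, apart in all libraries (0.78 ± 0.12, limma adjusted p = 0.0394, and 0.0599 after rescaling). Its neighbour Hoxd9 had a value of 0.73 (adjusted p = 0.0616). Tbx15, a T-box gene known in fast glycolytic fibers, was at 56.3, 60.8 and 62.9 TPM against 84.4, 91.9 and 93.9 TPM, lower in each gastrocnemius library by just under the 1.5-fold limit (-0.58, adjusted p = 0.0285). A further T-box gene outside that list, Tbx1, was among the largest differences, at 2.97, 2.80 and 1.31 TPM against 10.3, 9.41 and 8.51 TPM (-1.67 ± 0.18, adjusted p = 0.0285).

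Some position genes under the filter showed a wider ratio at low levels, and were looked up after the values were seen. Hoxd10 was at 2.79, 2.95 and 2.42 TPM in the gastrocnemius and 0.644, 0.465 and 0.204 TPM in the quadriceps. Hoxa13 was at 2.19, 1.11 and 2.51 TPM against 0.121, 0.175 and 0.192 TPM, and Tbx5 at 0.214, 0.529 and 0.501 TPM against 1.55, 1.45 and 1.34 TPM. The muscles did not overlap for these 3 genes, which were picked by their values (33.8% of all genes tested did not overlap). Hoxd10 and Hoxa13, genes of the distal limb, were higher in the calf muscle. The other members under the filter are not reported here, so these 3 do not describe the list. With a filter of 1 TPM, limma gave Hoxd10 an adjusted p of 0.096, and none of the 16301 genes tested there passed 0.05 (3233 had an unadjusted p under 0.05).

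Housekeeping groups were shifted toward the quadriceps by small amounts. Of 82 cytosolic ribosomal protein genes 76 were lower in the gastrocnemius, 58 without overlap. Of all genes, 28.3% were higher in the quadriceps without overlap. Of the 82, 13 were called (1.37% of all genes were called higher in the quadriceps). The median was -0.34, and -0.21 after rescaling, when 5 were called (0.334% of all genes). Rpl26 was at 83.0, 88.6 and 88.2 TPM against 157, 193 and 194 TPM, and Rps23 at 195, 205 and 196 TPM against 383, 412 and 380.1 TPM. Neither gene overlapped between the muscles. They differed by -1.05 ± 0.07 (SE, limma adjusted p = 0.0234) and -0.98 ± 0.06 (adjusted p = 0.017), Rpl27a by -0.82 (adjusted p = 0.0249) and Rpl11 by -0.83 (adjusted p = 0.0366). Other gene records, pseudogenes among them, share 27.0% and 36.3% of the 31-base words of Rpl26 and Rps23, so their split between gene and pseudogene is uncertain.

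Of 81 nuclear genes of oxidative phosphorylation 69 were lower in the gastrocnemius and 3 were called (1.37% of all genes were called higher in the quadriceps). The median was -0.26, beside -0.12 over all genes. After rescaling it was -0.13, with 59 lower and 0 called. The 3 calls were Atp5g2 (-0.87, limma adjusted p = 0.0285) and Atp5l (-0.62, adjusted p = 0.0347) of ATP synthase and Ndufb4 of complex I (-0.67, adjusted p = 0.0285). Of the 13 genes of the mitochondrial genome 1 was called (1.89% of all genes were), mt-Nd3. It was at 2672, 3439 and 4047 TPM against 8954, 6762 and 8908 TPM (-1.29 ± 0.15, limma adjusted p = 0.0311, and 0.0508 after rescaling). The median of the 13 was -0.02, and 98.1% of the 31-base words of mt-Nd3 are shared with the record Gm28438. Of 44 ubiquitin-proteasome genes 41 were lower in the gastrocnemius (median -0.37, and -0.24 after rescaling). The subunit genes Psma5 (-0.63, limma adjusted p = 0.0356) and Psmb4 (-0.59, adjusted p = 0.0445) were the 2 called (1.37% of all genes were called higher in the quadriceps), though not after rescaling. Other gene records share 58.7% of the 31-base words of Psma5, 40.2% of those of Atp5g2 and, among genes named in other lists, 30% of Me1 and 49.9% of Etfb, so the levels of these genes are uncertain.

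Other metabolic and regulatory lists had no called member. The 34 glycolysis genes had a median of -0.19, led by Tpi1 (-0.35, limma adjusted p = 0.041) and Ldha (-0.37, adjusted p = 0.0444), both under 1.5-fold. The 34 genes of fatty acid uptake and oxidation had a median of 0.01, with Lpl and Etfb (-0.30, adjusted p = 0.0751) at the smallest p. The 28 regulators around PGC-1, the coactivator of mitochondrial genes, had a median of 0.03, with Mef2c (-0.48, adjusted p = 0.0323) and Tfam (-0.50, adjusted p = 0.0402) under 1.5-fold. The 22 clock genes (Per1 0.46, adjusted p = 0.038, called after rescaling at 0.59; Ciart -0.30, adjusted p = 0.096) and 19 myogenic and neuromuscular junction genes (Gadd45a -0.52, adjusted p = 0.0587; Musk 0.34, adjusted p = 0.0997) gave none. Nor did 25 heat shock genes (Hspa5 -0.44, adjusted p = 0.0384; Hspb6 0.38, adjusted p = 0.0402) and 29 antioxidant genes (Prdx1 -0.38, adjusted p = 0.0515; Prdx5 -0.38, adjusted p = 0.0595).

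Among the other cell marker lists calls were few, beside 1.89% of all genes called. Endothelial Eng, a TGF-beta co-receptor, was the 1 of 20 members called, at 27.5, 23.7 and 20.2 TPM against 19.3, 14.5 and 12.04 TPM (0.62, limma adjusted p = 0.038). Dpt, the fibroblast matrix protein dermatopontin, was the 1 of 10 fibroblast and satellite cell markers called, at 12.2, 15.6 and 11.5 TPM against 23.1, 24.8 and 17.5 TPM (-0.69, adjusted p = 0.038, not called after rescaling). The 11 smooth muscle and pericyte markers had a median of 0.28 with none called (Acta2 0.56, adjusted p = 0.0445, under 1.5-fold; Notch3 0.50, adjusted p = 0.0631). No member was called of 43 matrix genes (Hspg2 0.40, adjusted p = 0.0593; Col3a1 -0.57, adjusted p = 0.096), 6 macrophage markers (Cd163 -0.60, adjusted p = 0.0919; Mrc1 -0.57, adjusted p = 0.0986) or 4 tendon markers (Cilp 0.26, adjusted p = 0.336; Thbs4 0.20, adjusted p = 0.576). Among 7 blood markers, the neutrophil genes S100a8 and S100a9 were at 15.7 and 11.3 TPM in the quadriceps of M08 and at 2.79 TPM or less in the other 5 libraries, and did not pass (adjusted p = 0.226 and 0.195). In the flown mice S100a8 was at 8.22 to 12.2 TPM and S100a9 at 13.7 to 21.4 TPM in the quadriceps, against 0.664 TPM or less in the gastrocnemius, and both were called there (limma adjusted p = 0.00987 and 0.0141). Their interaction adjusted p-values were 0.963 and 0.811.

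**Figure D3:**
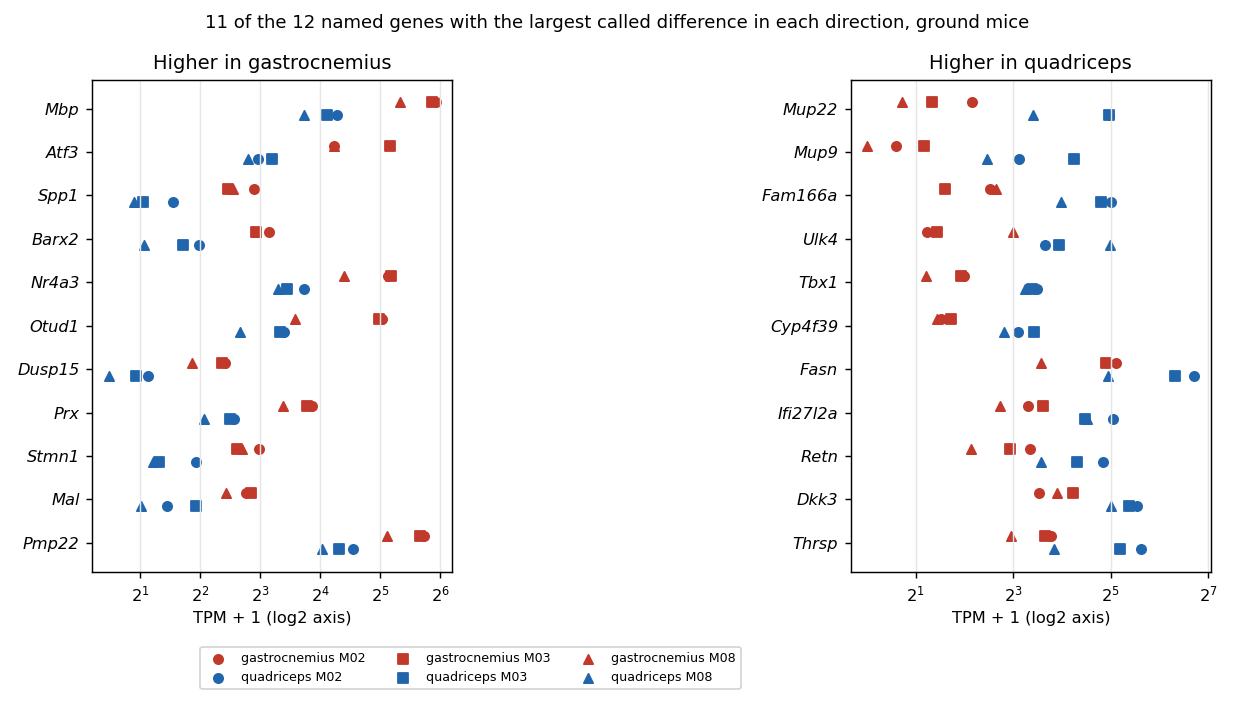
TPM + 1 on a log2 axis in each of the 6 ground libraries for 11 of the 12 named genes with the largest called difference in each direction (left, higher in the gastrocnemius; right, higher in the quadriceps). Red is gastrocnemius, blue is quadriceps, and the symbol gives the mouse; the muscles are apart for each gene shown except Fasn, where the quadriceps of M08 (29.6 TPM) lies below the gastrocnemius of M02 (33.4 TPM).

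Ranked by size over all named genes, the 12 largest differences toward the gastrocnemius included the myelin genes Mbp, Prx, Mal and Pmp22 and the immediate early genes Atf3 and Nr4a3. Spp1, the secreted phosphoprotein osteopontin, was at 6.43, 4.55 and 4.87 TPM against 1.93, 1.08 and 0.862 TPM (1.47, limma adjusted p = 0.0333). Barx2, a homeobox factor of muscle progenitors, was at 7.91, 6.66 and 6.59 TPM against 2.93, 2.30 and 1.08 TPM (1.42, adjusted p = 0.0357). Each was higher in all gastrocnemius libraries, from a low level. Otud1, a deubiquitinase, differed by 1.40 (adjusted p = 0.0311), Dusp15, a dual-specificity phosphatase, by 1.37 (adjusted p = 0.0437) and Stmn1, a microtubule regulator, by 1.28 (adjusted p = 0.0352). After rescaling Barx2, Dusp15 and Stmn1 were not called (adjusted p = 0.0587, 0.0621 and 0.0535). Dusp15, at 4.33 TPM or less in the ground libraries, passed the filter only through the flown gastrocnemius, where it is higher. With a filter on the ground libraries alone Dusp15 would not be tested. Spp1, Barx2, Stmn1, Prx and Mal were under 5 TPM in every quadriceps library, ground or flown. They were tested only through the gastrocnemius, where they are higher.

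Toward the quadriceps the largest was Mup22, a major urinary protein gene at chr4:60817589-60821463. It was at 3.47, 1.54 and 0.641 TPM in the gastrocnemius and 30.4, 30.02 and 9.54 TPM in the quadriceps (-3.03 ± 0.21, limma adjusted p = 0.0234). Mup9 was at 0.509, 1.25 and 0.00367 TPM against 7.66, 17.96 and 4.55 TPM (-2.69, adjusted p = 0.0249). Urinary proteins are products of the liver, and their gene cluster is highly repetitive: 100% and 85.6% of the 31-base words of Mup22 and Mup9 occur in other genes, so which cluster member was expressed is uncertain.

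The rest of these 12 were at lower levels. Ulk4, a predicted kinase, was at 1.34, 1.72 and 7.004 TPM against 11.6, 14.4 and 30.7 TPM (-2.31 ± 0.15, limma adjusted p = 0.0232), both muscles of M08 being the highest of their group. Fam166a was at 4.78, 2.02 and 5.30 TPM against 31.1, 26.7 and 14.7 TPM (-2.33, adjusted p = 0.038). Neither overlapped between the muscles. Cyp4f39, a fatty acid hydroxylase of the cytochrome P450 family, differed by -1.55 (adjusted p = 0.0285), Ifi27l2a, an interferon-induced gene, by -1.46 (adjusted p = 0.0347) and Dkk3, a secreted Dickkopf family protein, by -1.42 (adjusted p = 0.0352). After rescaling Fam166a, Ifi27l2a and Dkk3 were not called (adjusted p = 0.0734, 0.0599 and 0.0621). Tbx1, Fasn, Retn and Thrsp complete the 12. Mup22, Mup9, Tbx1 and Cyp4f39 were under 5 TPM in every gastrocnemius library, ground or flown. They were tested only through the quadriceps, where they are higher.

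Splicing was compared on the junction reads of skipped exons (SE) and pairs of mutually exclusive exons (MXE), as percent spliced in (PSI). PSI is the percent of an event's junction reads, scaled by effective length, that include the exon. It holds for the flanking exons of that event and is not the share of all transcripts. For an MXE pair, PSI is the use of whichever exon lies nearer the 5′ end of the transcript. Samples carry no names in these tables, and the values below follow list position, with no pairing by mouse. Junction reads summed over the matched events ran from 905896 to 931311 a sample in the gastrocnemius and from 776843 to 1245515 in the quadriceps, where the sample at list position 3 was the shallowest and had 79 events with 0 reads. Of 2044 events in 1010 genes, 125 were called (6.12%) at a limma adjusted p under 0.05 and a difference over 5 points, 98 with higher (4.79%) and 27 with lower (1.32%) inclusion in the gastrocnemius. The groups did not overlap for 20.5% of the events tested. The called events lay in 5 genes: Ttn (115), Neb (5), Tnnt3 (2), Trdn (2) and Ryr1 (1). The 10 outside Ttn depended on it, because limma called 0 events when the 268 Ttn events were left out, with adjusted p-values of 0.0805 to 0.278 for those 10 and an unadjusted p under 0.05 for 130 of the 1776 events.

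The gastrocnemius included more of the spring exons of titin. Of 268 Ttn events 115 were called (42.9%), and in 72 of the 73 called SE events inclusion was higher in the gastrocnemius. Many events share an exon, so 1 event for each of 52 skipped exons, that with the most reads, was also examined: 28 were called and 27 of these had higher inclusion in the gastrocnemius, with a median difference of 7.22 points over the 52. The sequences of 4 exons are shown because exons 170, 155 and 135 are among the largest called differences and exon 134 went the other way. They are from Ttn-203 on GRCm38, minus strand, 5′ to 3′ along the transcript, and capitals mark in-frame codons for the PEVK residues (CCN for proline, GTN for valine, GAA and GAG for glutamate, AAA and AAG for lysine).
Ttn exon 170, chr2:76832101-76832184: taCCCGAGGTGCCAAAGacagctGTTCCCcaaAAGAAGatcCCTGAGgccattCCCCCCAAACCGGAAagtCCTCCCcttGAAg
Ttn exon 155, chr2:76838812-76838895: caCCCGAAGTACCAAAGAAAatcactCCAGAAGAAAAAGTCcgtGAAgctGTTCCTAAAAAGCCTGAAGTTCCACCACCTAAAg
Ttn exon 135, chr2:76850306-76850380: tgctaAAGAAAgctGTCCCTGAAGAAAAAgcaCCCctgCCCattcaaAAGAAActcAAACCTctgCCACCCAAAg
Ttn exon 134, chr2:76850570-76850644: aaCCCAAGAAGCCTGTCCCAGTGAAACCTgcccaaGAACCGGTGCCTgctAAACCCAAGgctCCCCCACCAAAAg

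PEVK codons made up 70.4%, 85.2%, 66.7% and 83.3% of the whole codons in exons 170, 155, 135 and 134. The median was 74.1% over the 51 tested exons of Ttn-203 and 34.7% over its 344 whole coding exons. Called and uncalled tested exons had medians of 74.1% and 69.2%, a smaller gap than that between tested exons and the whole transcript. All 51 were a multiple of 3 bases long, so that skipping keeps the reading frame, and 42 were at most 120 bases.

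Exon 170 had the largest difference of all called events. Its PSI was 87.1%, 82.3% and 78.6% in the gastrocnemius and 13.3%, 14.2% and 9.29% in the quadriceps, on 247 to 402 junction reads a sample. Exon 155 was included at 90.6%, 84.4% and 84.7% against 23.6%, 29.96% and 22.6%, on 325 to 553 reads. In both exons the muscles were far apart and the samples of a muscle lay close together. The differences were 70.4 points (limma adjusted p = 5e-05) and 61.1 points (adjusted p = 6.3e-05). Each exon takes part in several events, and in the events with the most reads its inclusion was lower in both muscles: 24.1% ± 7.34 against 2.66% ± 0.556 for exon 170 and 29.2% ± 9.35 against 5.32% ± 0.832 for exon 155 (SD, n = 3). 

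Exon 135 was included at 73.9%, 70.1% and 76.0% in the gastrocnemius and 25.1%, 15.9% and 18.5% in the quadriceps, on 1921 to 3585 reads, a difference of 53.5 points. Its neighbour exon 134 was included at 93.4%, 96.0% and 92.3% against 99.6%, 99.4% and 98.9%, the only called exon of the 28 with lower inclusion in the gastrocnemius (-5.40 points). Exons 135 and 134 thus differed in opposite directions, by unequal amounts. Outside the dense run of short exons, exon 49 (chr2:76901841-76902122) was included at 91.5%, 69.8% and 87.6% against 54.1%, 57.3% and 27.0%, and exon 66 (chr2:76894624-76894902) at 95.7%, 82.1% and 93.7% against 70.9%, 71.2% and 42.0%. For these 282-base and 279-base exons the gastrocnemius sample at position 2 and the quadriceps sample at position 3, the shallowest, were the lowest of their groups. The groups did not overlap, with limma adjusted p-values of 0.033 and 0.031. Near the 3′ end, exon 346 (chr2:76705670-76705972), which encodes part of the M-band end, was included at 18.9% ± 0.274 against 12.05% ± 1.26 (SD, n = 3, limma adjusted p = 0.018).

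**Figure D4:**
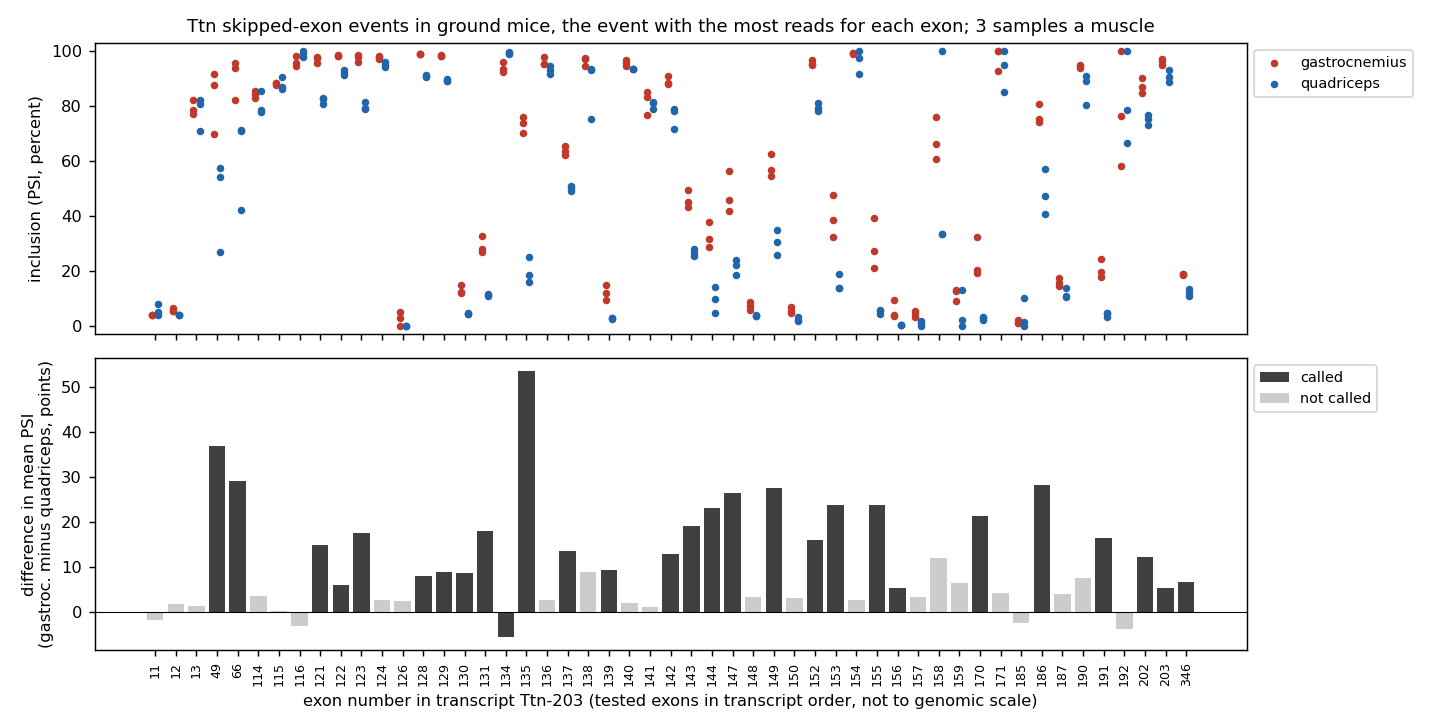
Upper panel, inclusion (PSI, percent) of 51 tested Ttn exons in each of 3 gastrocnemius (red) and 3 quadriceps (blue) samples, for the event with the most reads; lower panel, difference in mean PSI in points, dark bars called and pale bars not. Exons stand in transcript order, evenly spaced; the tallest bar is exon 135 (53.5 points) and exon 134 is the called bar below 0 (-5.40 points).

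Repeated sequence limits some of these exons. Exons 185 and 186 had all of their 25-base words elsewhere in the transcript (100%), exons 170 and 187 had 21.7%, exon 190 15.7% and exon 144 12.7%, and the other tested exons 0. The call on exon 186 (76.7% against 48.3%) therefore cannot be assigned to that copy alone, while exons 155 and 135 had no repeated word.

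Nebulin, the giant ruler of the thin filament, had 5 called events of 66 tested, in 4 of 27 distinct exons. That was 7.58% of its events, beside 6.12% called over all events, a share made up mostly by Ttn (115 of 125 calls). Outside Ttn 10 of 1776 events were called, these 5 among them. Its 2 called skipped exons are shown as they stand in Neb-202 (GRCm38, minus strand), since they differ in inclusion by the most.
Neb exon 143, chr2:52161371-52161475: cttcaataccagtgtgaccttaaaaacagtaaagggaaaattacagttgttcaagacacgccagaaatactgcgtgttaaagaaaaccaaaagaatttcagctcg
Neb exon 150, chr2:52150967-52151059: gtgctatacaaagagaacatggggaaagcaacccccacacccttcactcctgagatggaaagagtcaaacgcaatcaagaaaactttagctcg

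Exon 143 was included at 68.9%, 61.2% and 64.2% in the gastrocnemius and 52.2%, 46.1% and 46.7% in the quadriceps, on 3111 to 4433 reads a sample (16.4 points, limma adjusted p = 0.0085). Exon 150 was included at 80.1%, 74.4% and 74.7% against 54.1%, 52.0% and 48.0%, on 148 to 290 reads (25.1 points, adjusted p = 0.025). All gastrocnemius samples were above all quadriceps samples. Exon 143 also entered a pair of called MXE events. As the second partner of exon 142 it was again used more in the gastrocnemius, where exon 142 had a PSI lower by 11.1 points. Against exon 144 its PSI was higher by 13.9 points. The last, exon 144 against a later 93-base exon, was lower by 7.86 points. Neb as a whole was lower in the gastrocnemius by -0.41 (limma adjusted p = 0.037), under 1.5-fold.

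Calcium release and thin filament genes carried the other calls. Their short exons are printed because each adds or removes a few codons of a channel or regulatory protein.
Ryr1 exon 84, chr7:29044919-29044936: tcatcaatcgccaaaacg
Tnnt3 exon 8, chr7:142505516-142505530: aggaagtccaagaag
Trdn exon 4, chr10:33158246-33158278: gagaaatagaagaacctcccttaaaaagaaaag

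Ryr1, the calcium release channel of the sarcoplasmic reticulum, included its 18-base exon 84 of Ryr1-208 at 78.9%, 80.6% and 77.6% in the gastrocnemius and 89.8%, 88.4% and 92.9% in the quadriceps, on 1113 to 2406 reads (-11.3 points, limma adjusted p = 0.0078). Tnnt3, fast troponin T, included its 15-base exon 8 of Tnnt3-226 at 84.3%, 80.1% and 84.8% against 90.7%, 90.4% and 91.2% (-7.68 points, adjusted p = 0.031). Both exons were included less in every gastrocnemius sample. Trdn, triadin, which couples the channel to calsequestrin, used exon 4 in place of a later exon (chr10:33175769-33175828) at 30.2%, 25.9% and 22.2% against 15.4%, 14.3% and 13.8% (11.6 points, adjusted p = 0.0085). Trdn exon 2 against the same later exon differed by 7.43 points (adjusted p = 0.032), and Tnnt3 exon 11 (chr7:142510664-142510709), in an MXE pair, by 6.85 points (adjusted p = 0.04).

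No event was called in Mbnl1 (8 tested, smallest limma adjusted p = 0.132), and the 1 event of Tpm1 (adjusted p = 0.0316) was under 5 points. Splicing factors did not differ in level past the limits: of 58 genes of splicing RNA-binding proteins 0 were called by limma, with Srsf5 (-0.41, adjusted p = 0.0409) under 1.5-fold, for example, and a list median of -0.11. Rbm20, the repressor of titin exons in heart muscle, was at 34.0, 34.4 and 31.8 TPM against 34.4, 31.3 and 32.1 TPM, overlapping between the muscles (0.04, adjusted p = 0.801). Mbnl1, which regulates troponin T exons, was at 249.6, 267 and 265 TPM against 285, 294 and 308 TPM (-0.18, adjusted p = 0.126).

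The same muscle difference was computed in the 3 flown mice, which share no library with the ground comparison. Limma called 168 of 10481 genes there (1.6%), 45 higher in the gastrocnemius (0.429%) and 123 higher in the quadriceps (1.17%), and 43 after rescaling. Of the 198 genes called on the ground 187 (94.4%) had the same sign in the flown mice, where 75.4% of all genes did, and 67 were also called in the same direction. With both sets rescaled 184 of the 198 kept the sign, beside 72.4% of all genes. The test of the difference itself, an interaction over 12 libraries with mouse as a block, passed 0 genes in limma (534 with an unadjusted p under 0.05, and 1, the pseudogene Rps25-ps1, past the adjusted threshold without M12).

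Differences between lists in ground and flown mice were not tested, and the medians are given side by side. Myelin genes had a median of 1.36 in the flown mice against 1.08 on the ground, with Mbp at 2.18 against 1.66. Fast-twitch genes had a median of -0.44 against -0.40, with Mylpf at -0.90 against -0.87. Slow-twitch genes had a median of -0.12 against 0.23, and the ground median was -0.12 without M02. In the flown mice 2 of them were called higher in the quadriceps and 0 in the gastrocnemius. Actn2 and Lmod2, called on the ground, kept their direction there without being called. Actn2 was at 0.50 (limma adjusted p = 0.0483, under 1.5-fold) and Lmod2 at 0.64 (adjusted p = 0.0789). Of the sarcomere, Z-disc and M-band genes 4 were called higher in the quadriceps and 1 in the gastrocnemius of the flown mice. Adipocyte markers had a median of 0.02 against -0.90, and fatty acid synthesis genes, the list added after the values were seen, one of -0.01 against -0.38. The ground median of the latter was -0.23 without M02. Fasn was at -0.19 and Adipoq at -0.05 in the flown mice. The limma interaction gave them adjusted p-values of 0.811 and 0.939 (unadjusted 0.00504 and 0.0126). Thrsp and Cidec, at -0.32 and 0.16 in the flown mice, had interaction adjusted p-values of 0.787 and 0.811 (unadjusted 0.00214 and 0.00389). No difference between ground and flown mice thus passed the adjusted threshold for these genes. The immediate early list had a median of 0.36 in the flown mice and 0 called members. Atf3, Fos, Nr4a3 and Sik1 were at 1.25, 0.67, 0.64 and 0.26 there, with limma adjusted p-values of 0.0672, 0.315, 0.071 and 0.148. Their interaction adjusted p-values were 0.979, 0.976, 0.934 and 0.939 (unadjusted 0.00843 for Nr4a3 and 0.0124 for Sik1). Mstn was at -0.95 in the flown mice and was called (limma adjusted p = 0.0411). Acvr2a, Irs2 and Cebpb, also called on the ground, were at -0.63, 0.21 and 0.67 there. None of these was called (limma adjusted p = 0.0589, 0.286 and 0.102). The interaction adjusted p of Irs2 was 0.811 (unadjusted 0.00445).

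**Figure D5:**
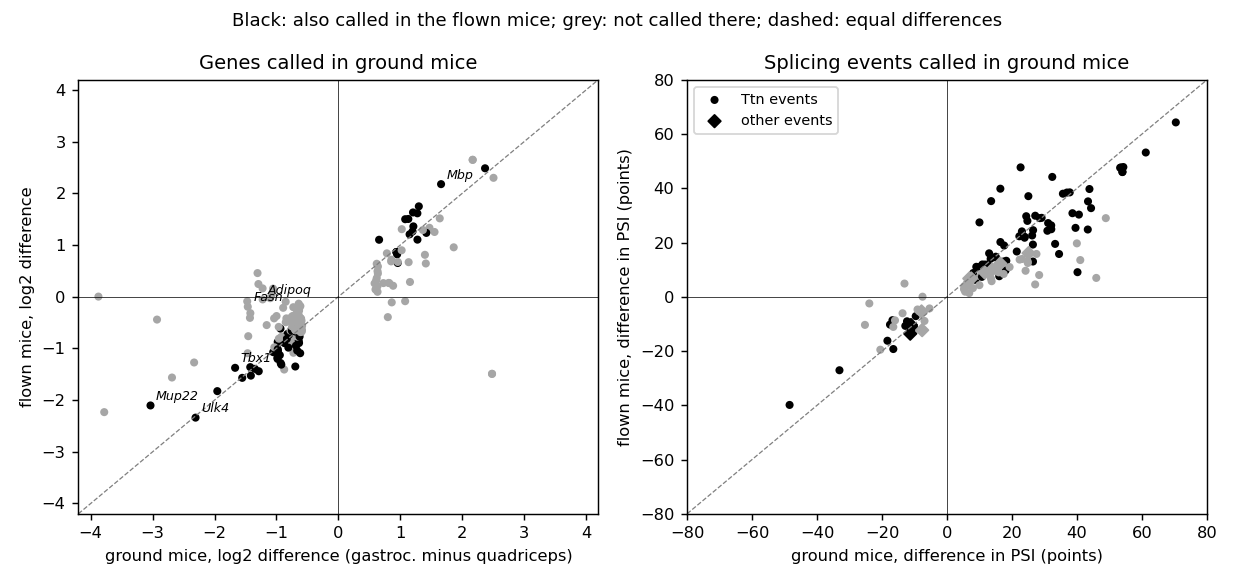
Difference between the muscles in ground mice (horizontal) against flown mice (vertical), for the 198 genes called on the ground (left, log2 scale) and the called splicing events tested in both (right, points of PSI). Black points were also called in the flown mice and grey points were not; the dashed line marks equal differences, and 122 of 124 events and 187 of 198 genes have the same sign in both.

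Most splicing differences called on the ground had the same direction in the flown mice. Of the 125 events called on the ground 124 could be tested there, 122 (98.4%) had the same direction and 75 (60.5%) were called, beside 59.0% and 5.51% of the 1869 events tested in both. Limma called 105 of 2104 events in the flown mice (4.99%). Exon 170 of Ttn differed by 64.3 points and exon 155 by 53.2 points in the flown mice, both called. The Ryr1 exon differed by -13.6 points and was called (limma adjusted p = 0.0011). The Neb exons 143 and 150 differed by 12.2 and 16.1 points and the Tnnt3 exon 8 by -12.3 points, none of them called (adjusted p = 0.116, 0.267 and 0.113).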

How the data were processed

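The authors deposited TPM per gene, estimated from stranded single-end reads with kallisto (0.46.0 in the submitters' processing notes) and summed with tximport. They also deposited rMATS-turbo splicing tables with junction read counts per sample, from STAR (2.7.1a) alignments to mm10. The p-value and FDR columns compare flight with ground and were not used. Of 36008 gene identifiers 35856 have a symbol, and 0 sample columns were left unused.

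The 10481 genes above 5 TPM in 1 or more of the 12 libraries were fitted as log2(TPM + 1) by limma 3.58.1 in R 4.3.3 (eBayes with trend, two-sided, Benjamini-Hochberg over all genes). Mouse was a block because both muscles came from the same animal (2 residual degrees of freedom). Same-mouse deviations correlated weakly (0.094, 0.014 and 0.163). P-values rest on the spread between these 3 mice, and between 3 samples a muscle in splicing. Limma draws the variance of each gene or event toward a prior variance estimated from all those tested. Splicing used 1750 SE and 653 MXE events found in both muscles' tables. Events were kept (2044) with over 10 mean junction reads in each muscle, unless every sample had a PSI of 0.05 or less, or every sample one of 0.95 or more. Inclusion and skipping reads, after adding 0.5, were scaled by effective length. Limma was fitted to their log2 ratio, unpaired, letting the prior variance depend on the reads.

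Named were all myosin heavy chains, the 12 largest called differences in each direction without predicted genes or pseudogenes, up to 4 called members of each list (or the 2 of smallest p where none was called) and the largest called events, at most 2 a gene. Some genes that the rule names are not reported here. Genes named outside this rule were chosen after their values were seen. Members, lists and tests were chosen with earlier results of these data known. Positions are 1-based. Exons were placed with GENCODE vM21 and sequences read from GRCm38. Both fits were tested on simulated data. Alternatives covered the pseudocount, filter, scaling, block, trend, added reads, read minimum and each mouse or sample left out.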

Additional observations from a re-analysis of the deposited data

How the results depend on the processing

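The 198 called genes (54 higher in the gastrocnemius, 144 in the quadriceps) became 75 (40 and 35) when TPM was rescaled by the median of ratios and 80 (48 and 32) when TPM was recomputed without Gm12895 and Gm12896, a setting chosen after seeing the data. No gene was called with a filter of 1 TPM (0 of 16301, 3233 with an unadjusted p under 0.05) or with no filter (0 of 24335, 3526 unadjusted). Without the variance trend 15 were called (7 and 8), and over all 12 libraries 335 (102 and 233). Leaving out 1 mouse gave 0 to 2 in all, 0 to 1 in each direction. Without the replicate block, so without pairing, 232 were called (61 and 171). Pseudocounts of 0.1 and 5 gave 192 and 157, and a filter on the 6 ground libraries 257. The flown mice gave 168 genes, 174 without the block and 43 after rescaling. The interaction gave 0 to 1 genes when 1 mouse was left out. For splicing, 125 called events became 40 without the trend, 90 to 123 when 1 sample was left out, and 129 to 163 under the other settings. Chosen after seeing the data, the count outside Ttn was 10, and it was 0 with Ttn events left out of the fit. No paired analysis was possible for splicing because samples are listed without names. The Myh7 share difference ran from 0.0218 to 0.524 points when 1 mouse was left out. Of the 54 named genes that were called, 27 were still called after rescaling. Why these settings moved the counts was not tested. The median of 35 junction reads an event and sample limits small splicing differences, and TPM carries no depth.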
